A study of Mus musculus with 4 samples.

Results

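The 10 genes described here are parts of the canonical Wnt pathway and 3 of its growth-promoting targets, measured in mouse colon: Ctnnb1 (beta-catenin), Apc, the TCF/LEF factors Tcf7, Tcf7l1, Tcf7l2 and Lef1, the coactivator gene Bcl9, and Myc, Ccnd1 and Sox4. They were chosen by gene symbol, and all 10 were found among the 44788 rows of the count table. The study sequenced colon RNA from C57BL/6 mice in 4 libraries, 1 per group: untreated wild type (WT), untreated mice labelled Card9-/-, and each of those genotypes after AOM/DSS. AOM (azoxymethane) is a mutagen and DSS (dextran sulfate sodium) an irritant of the colon, and together they are used to model colon cancer that arises in inflamed tissue. AOM was injected once at 10 mg/kg on day 1, 2% DSS of 36 to 50 kDa was given in the drinking water in 3 cycles of 7 days, the first after 5 days, and the colons were taken on day 100. The untreated libraries are labelled day 0, so treatment and day of collection cannot be told apart. The sources used here give neither the number of mice behind a library nor their age, and the AOM/DSS samples are labelled only as colon tissue, so the share of tumour in them is unknown.

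Beta-catenin joins cadherins at cell junctions and, when it is not broken down, enters the nucleus as a partner of TCF/LEF factors. The APC protein is a scaffold of the complex that marks beta-catenin for breakdown, and loss of APC or stabilising mutations of beta-catenin start most intestinal tumours. TCF/LEF factors bind DNA and repress their targets with Groucho/TLE corepressors until beta-catenin and coactivators such as BCL9 join them. In the intestinal crypt this switch keeps stem cells dividing, and MYC, cyclin D1 (Ccnd1) and SOX4 are among its known targets. Tcf7 and Lef1 are also transcription factors of T cells, and both are known to be transcribed from more than 1 start, with the downstream starts giving shorter proteins that lack the beta-catenin-binding end.

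The sequences at the starts of Lef1, Sox4 and Tcf7l2 are shown because Lef1 and Sox4 had the largest ratios of the 10 genes in both comparisons with the labelled Card9-/- AOM/DSS library and Tcf7l2 went the other way. Each is the RefSeq window (GRCm38.p6) from 250 bases before to 50 bases after an annotated start, 5′ to 3′ on the gene's own strand. Capitals mark a match to the TCF/LEF core, searched on both strands as CTTTGAT or its variants ending in AA (CTTTGAA) or in TT (CTTTGTT) or in TA (CTTTGTA), which cannot overlap one another on the same strand. The table held windows for 7 of the 10 genes, and Lef1 had 4 annotated starts, of which the most upstream and the most downstream are shown. These are Lef1 at chr3:131110047-131110346 (plus strand), Lef1 at chr3:131156044-131156343 (plus strand), Sox4 at chr13:28953650-28953949 (minus strand) and Tcf7l2 at chr19:55895071-55895370 (plus strand, an internal start).
Lef1, upstream start: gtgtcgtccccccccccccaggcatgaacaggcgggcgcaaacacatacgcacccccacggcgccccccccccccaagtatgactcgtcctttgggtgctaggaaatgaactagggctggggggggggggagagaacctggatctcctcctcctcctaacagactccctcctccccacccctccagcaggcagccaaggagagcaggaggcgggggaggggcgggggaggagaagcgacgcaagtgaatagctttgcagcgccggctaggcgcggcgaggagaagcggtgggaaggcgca
Lef1, downstream start: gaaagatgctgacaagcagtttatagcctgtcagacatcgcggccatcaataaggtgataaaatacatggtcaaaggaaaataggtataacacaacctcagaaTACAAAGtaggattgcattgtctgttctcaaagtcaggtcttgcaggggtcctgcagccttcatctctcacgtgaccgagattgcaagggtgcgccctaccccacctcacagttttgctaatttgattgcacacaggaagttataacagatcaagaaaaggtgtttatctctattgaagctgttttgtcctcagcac
Sox4: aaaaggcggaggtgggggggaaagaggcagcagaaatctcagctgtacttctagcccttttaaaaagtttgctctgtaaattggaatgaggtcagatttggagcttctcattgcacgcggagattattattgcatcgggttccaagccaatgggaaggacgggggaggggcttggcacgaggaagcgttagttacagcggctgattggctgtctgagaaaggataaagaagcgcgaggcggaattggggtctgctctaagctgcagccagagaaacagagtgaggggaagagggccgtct
Tcf7l2, internal start: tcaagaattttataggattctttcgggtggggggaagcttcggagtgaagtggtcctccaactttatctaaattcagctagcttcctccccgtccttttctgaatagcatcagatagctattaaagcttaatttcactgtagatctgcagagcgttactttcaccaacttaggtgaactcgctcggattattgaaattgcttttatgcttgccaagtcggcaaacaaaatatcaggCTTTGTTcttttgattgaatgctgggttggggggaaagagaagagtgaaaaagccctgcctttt

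The first pair of cores, CTTTGAT and CTTTGAA, was found in 0 of the 13 windows of these genes and in 8.65% of all 32851 windows. CTTTGTT and CTTTGTA were added after that result was seen, and with all 4 cores 2 of 13 windows (15.38%) held a match, against 16.88% of all windows. A CTTTGTA lay on the minus strand of the downstream Lef1 window, with its leftmost base 147 bases before the start. A CTTTGTT lay on the plus strand of the internal Tcf7l2 window, with its leftmost base 14 bases before that start. The upstream Lef1 window, the Sox4 window and the upstream Tcf7l2 window, which is not shown, held none of these letters. The share in these windows was near that of all windows, and a match is a description of letters, not a binding site. Counts per gene do not show which start was used.

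The libraries held 23022885 to 27706567 counts. Intervals reflect counting alone, and no molecular identifiers tell reads of the same molecule apart. With 1 library per group there was no replicate, so no difference could be set against a spread between mice, and no p-value was computed. Card9 was counted in all 4 libraries, with WT values of 1.75 CPM untreated and 5.32 CPM after AOM/DSS (CPM are counts scaled to a common library size). The Card9-/- labels had 3.18 CPM and 7.73 CPM, no lower than WT. Counts per gene do not show whether the transcript is intact, so the labels could not be checked. "Labelled Card9-/-" therefore stands for the label alone throughout. The labelled Card9-/- AOM/DSS library stood apart from the others (correlation on the log2 scale 0.798 to 0.829, against up to 0.947 among the others), with less 18S ribosomal RNA (2.86% against 5.20% to 7.11% of counts). The mature colonocyte markers that check the tissue summed to 4604 to 11040 CPM in the other libraries and to 187 CPM in this one, and none was at 0. Smooth muscle markers summed to 1243 CPM there and to 6563 to 8896 CPM elsewhere. The colonocyte sums hide opposite differences between the untreated libraries. Of the 7 markers, 4 were at least 2-fold higher in the labelled Card9-/- one and 2 lower, beside 4.46% and 3.37% of all genes. Aqp8 was 12.1-fold and Car4 5.28-fold higher, while Car1 was 8.93-fold and Cyp2c55 7.73-fold lower. The baseline of the labelled pair therefore had a different mix of colonocyte markers from untreated WT.

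Of the genes, 5 (Tcf7, Lef1, Myc, Ccnd1 and Sox4) were at least 2-fold higher in the labelled Card9-/- AOM/DSS library than in either library it was compared with. In WT, 0 of the 10 genes differed by that much between AOM/DSS and untreated colon. A gene was called higher or lower when the ratio of CPM, scaled with TMM factors and with 1 CPM added, reached 2-fold and the higher library held at least 50 counts.

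In the labelled Card9-/- pair, 5 of 10 genes were higher after AOM/DSS than untreated, where 14.1% of all 15900 genes with enough counts were higher, and 1 (Tcf7l1) was lower, where 15.9% were. Between the AOM/DSS libraries, 5 of 10 were higher in the labelled Card9-/- library and 0 lower, against 11.9% and 12.4% of 15779 genes. These comparisons share the labelled Card9-/- AOM/DSS library, so the same 5 genes in both is a single observation. In WT, 9 of 10 genes had enough counts (Lef1 did not) and 0 were higher or lower, where 4.08% and 3.88% of 15356 genes were. Between the untreated libraries 0 were higher or lower, where 4.46% and 3.37% of 15352 genes were, and Lef1 again had too few counts.

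The median log2 ratio of the 10 genes was 0.79 in the labelled Card9-/- pair and 0.77 between the AOM/DSS libraries, beside 0.03 for all genes in each. It was 0.04 in WT and 0.03 between the untreated libraries, beside 0.02 and -0.01. Scaling by library totals alone raised the median of all genes to 0.30 and 0.28 in the first 2 comparisons, and moved the share of called genes that were higher from 47.0% to 64.1% and from 48.9% to 64.2%. The same 5 genes were called higher under that scaling too.

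**Figure D1:**
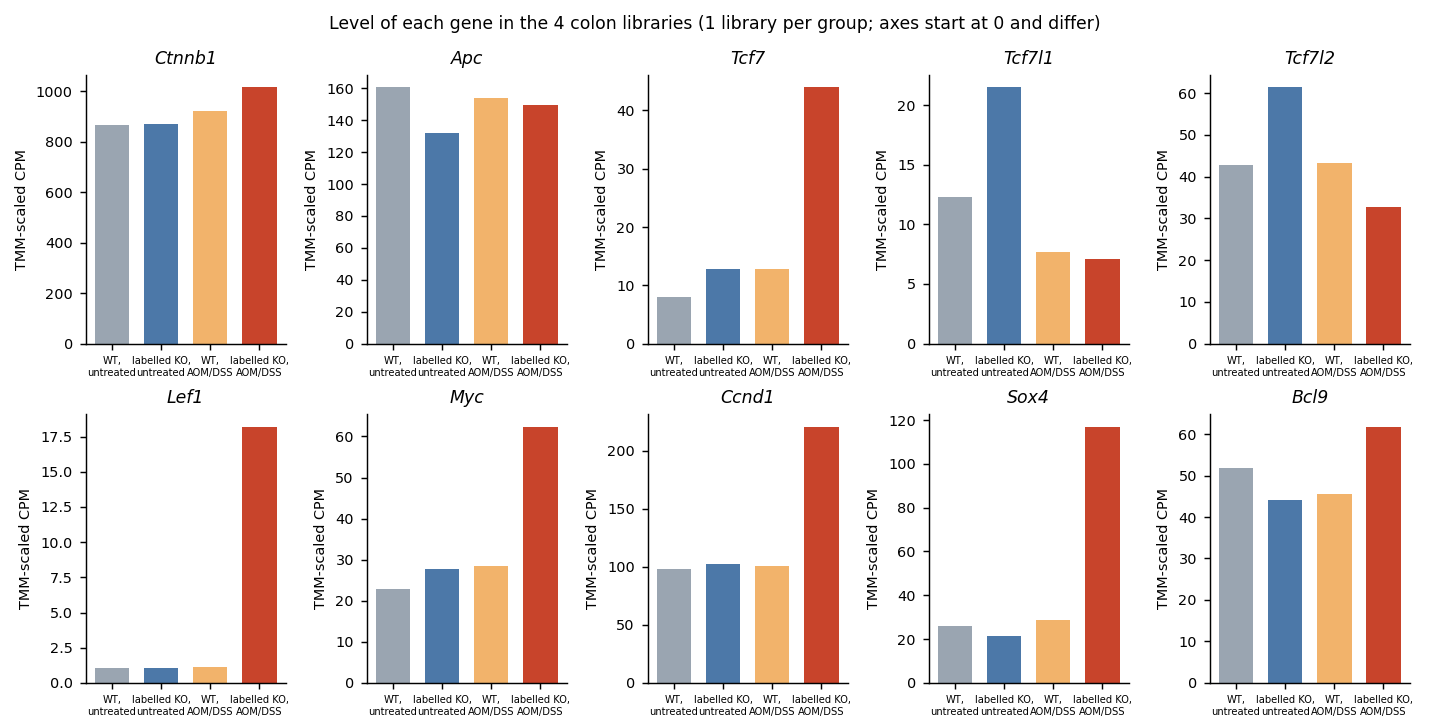
Level of each of the 10 genes in the 4 libraries, as TMM-scaled CPM on axes that start at 0 and differ between genes; each bar is 1 library, with no error bar because there is no replicate. Lef1 stands at 18.2 CPM in the labelled Card9-/- AOM/DSS library and at 1.06 to 1.15 CPM in the other 3, while Ctnnb1 lies between 867 and 1015 CPM throughout.

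Beta-catenin, its scaffold and its coactivator varied little. Ctnnb1 (chromosome 9, 120929216 to 120960507, GRCm38) stood at 867 CPM in untreated WT, 871 CPM in untreated labelled Card9-/-, 922 CPM in WT AOM/DSS and, at its highest, 1015 CPM in labelled Card9-/- AOM/DSS. The highest library was 1.17-fold above the lowest. AOM/DSS over untreated was 1.06-fold in WT (95% counting interval 1.04 to 1.09) and 1.17-fold in the labelled Card9-/- pair (1.14 to 1.19). Both are small beside scaling: relative to summed epithelial markers, an alternative added after the data were seen, the log2 ratio went from 0.09 to -0.23 in WT and from 0.22 to 0.89 in the labelled pair. These are transcript counts, and the amount, place and mutation state of the beta-catenin protein were not measured.

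Apc stood at 161, 132, 154 and 149 CPM in the same order of libraries, so it was lowest in the untreated labelled Card9-/- library. It was 1.13-fold higher after AOM/DSS in the labelled pair (1.08 to 1.19), and in WT the interval of the ratio held 1 (0.958-fold, 0.915 to 1.00). Between the AOM/DSS libraries its ratio was 0.970 (0.928 to 1.02), and the log2 ratio turned from -0.04 to 0.23 under library totals. Bcl9, whose protein links beta-catenin to Pygopus coactivators, stood at 51.9, 44.1, 45.5 and 61.8 CPM. Bcl9 was 1.14-fold lower after AOM/DSS in WT (1.05 to 1.24) and 1.40-fold higher in the labelled pair (1.30 to 1.51). Its libraries spanned 1.40-fold in all, below the 2-fold rule in each comparison.

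The TCF/LEF factors differed in direction. Lef1 (chromosome 3, 131110471 to 131224356) had 27, 23 and 25 counts in untreated WT, untreated labelled Card9-/- and WT AOM/DSS, and 577 counts in labelled Card9-/- AOM/DSS. That is 1.07, 1.06, 1.15 and 18.2 CPM, so the first 3 libraries lay within 1.08-fold of each other and the last stood far above them. Lef1 was 17.2-fold higher after AOM/DSS in the labelled pair (11.4 to 27.4) and 15.9-fold higher than in WT AOM/DSS (10.7 to 24.8). In WT its ratio was 1.07, with a wide interval of 0.596 to 1.92 from few counts.

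Tcf7, which encodes the T cell factor TCF1 and is also made in crypts, stood at 7.93, 12.8, 12.8 and 44.0 CPM. It was lowest in untreated WT, alike in the middle 2 libraries and highest in labelled Card9-/- AOM/DSS. Tcf7 was 3.44-fold higher after AOM/DSS in the labelled pair (3.02 to 3.92) and 3.44-fold higher than in WT AOM/DSS (3.02 to 3.92). The WT pair differed by 1.61-fold (1.34 to 1.94), below the rule, as did the untreated libraries (1.61-fold, 1.34 to 1.94).

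Tcf7l1 and Tcf7l2 had their lowest level in the same library. Tcf7l1, mainly a repressor among these factors, stood at 12.3, 21.5, 7.70 and 7.13 CPM, lower in both AOM/DSS libraries than in either untreated one. It was 3.01-fold lower after AOM/DSS in the labelled pair (2.57 to 3.55) and 1.60-fold lower in WT (1.32 to 1.94), and the AOM/DSS libraries differed by less than counting error (0.926-fold, 0.755 to 1.14). The high starting level of the untreated labelled Card9-/- library, 1.75-fold above untreated WT (1.51 to 2.02), enters the first of these ratios. An antisense gene that overlaps an exon of Tcf7l1, Gm15401, had 334, 1980, 223 and 51 counts, and without known strand handling the reads of the pair cannot be told apart. The same holds for Ctnnb1 and Ulk4 on the opposite strand, which had 29 to 87 counts against 18914 or more. Ccnd1, Lef1 and Sox4 also overlap opposite-strand genes that are not used here.

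Tcf7l2, the main TCF factor of intestinal epithelium, stood at 42.7, 61.4, 43.3 and 32.7 CPM. It was 1.88-fold lower after AOM/DSS in the labelled pair (1.73 to 2.04), just under the 2-fold rule, and nearly level in WT (1.01-fold, 0.928 to 1.11). Between the AOM/DSS libraries it was 1.32-fold lower in the labelled one (1.21 to 1.45).

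Set against each other per length of their exons (from GENCODE M21), the 4 TCF/LEF transcripts had a different make-up in the labelled Card9-/- AOM/DSS library. The length used was the union of all annotated exons of a gene, which need not be the length of the transcripts made. Tcf7l2 made up 43.7%, 40.1% and 41.5% of the summed CPM per kb in untreated WT, untreated labelled Card9-/- and WT AOM/DSS, and 15.3% in labelled Card9-/- AOM/DSS. Tcf7 made up 27.1%, 27.9%, 41.0% and 68.7%. The share of Lef1 was 1.09%, 0.69% and 1.10% in the first 3 libraries and 8.50% in the last, and that of Tcf7l1 was 28.1%, 31.4%, 16.5% and 7.46%. The ratio of Tcf7 plus Lef1 to Tcf7l1 plus Tcf7l2 was 0.393, 0.400, 0.726 and 3.39, so it was higher in WT AOM/DSS than in untreated WT, and above 1 only in the labelled Card9-/- AOM/DSS library. Without the length step Tcf7 was also the largest of the 4 there, at 43.1% against 32.1% for Tcf7l2, which was the largest elsewhere (63.5% to 66.7%). The shares themselves depended on that step: without it Lef1 had 17.85% in labelled Card9-/- AOM/DSS, and Tcf7 had 19.7% in WT AOM/DSS.

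**Figure D2:**
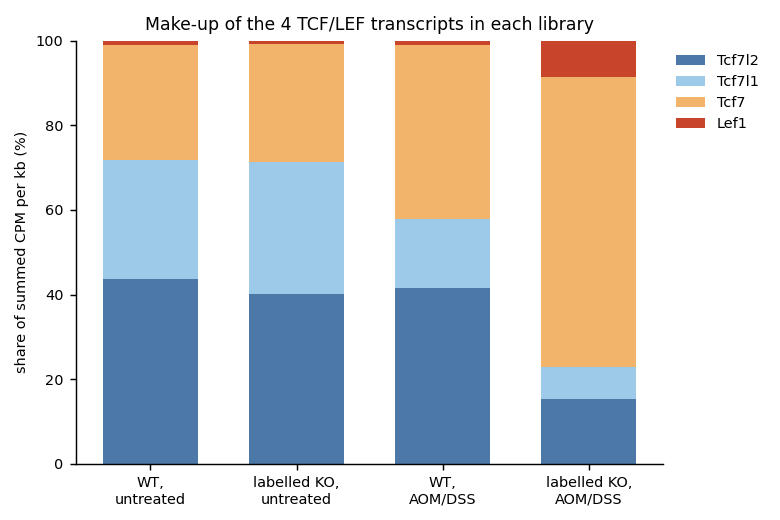
Share of each TCF/LEF transcript in their summed CPM per kb of exon, in percent, with 1 stacked bar per library. Tcf7 takes 68.7% of the labelled Card9-/- AOM/DSS bar, and Tcf7l2 takes 15.3% there against 40.1% to 43.7% in the other 3.

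The 3 oncogenic targets were all highest in the labelled Card9-/- AOM/DSS library. Sox4 (chromosome 13, 28948919 to 28953713), a transcription factor of progenitor cells, stood at 26.1, 21.5, 28.8 and 117 CPM in the same order. Its first 3 libraries lay within 1.34-fold, and the last was 4.06-fold above the highest of them. After AOM/DSS it was 5.45-fold higher in the labelled pair (4.95 to 6.02) and 1.10-fold in WT (0.987 to 1.23).

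Myc (chromosome 15, 61985391 to 61990374), which drives ribosome production and growth, stood at 23.0, 27.6, 28.4 and 62.4 CPM. The last library was more than 2-fold above each of the others, which differed among themselves by up to 1.24-fold. Myc was 2.26-fold higher after AOM/DSS in the labelled pair (2.06 to 2.48), 2.20-fold higher than in WT AOM/DSS (2.01 to 2.41) and 1.24-fold higher after AOM/DSS in WT (1.10 to 1.39). In WT it was level when scaled to summed epithelial markers (log2 ratio -0.01 in place of 0.29).

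Ccnd1 (chromosome 7, 144929931 to 144939925), the cyclin that opens the cell cycle with CDK4 and CDK6, stood at 98.0, 102, 100 and 221 CPM. Its first 3 libraries agreed within 1.04-fold. Ccnd1 was 2.16-fold higher after AOM/DSS in the labelled pair (2.06 to 2.27) and 1.03-fold in WT (0.967 to 1.09). Both Myc and Ccnd1 lay close to the 2-fold rule, and their log2 ratios between the AOM/DSS libraries were 1.01 and 1.10 with a pseudocount of 5 CPM.

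**Figure D3:**
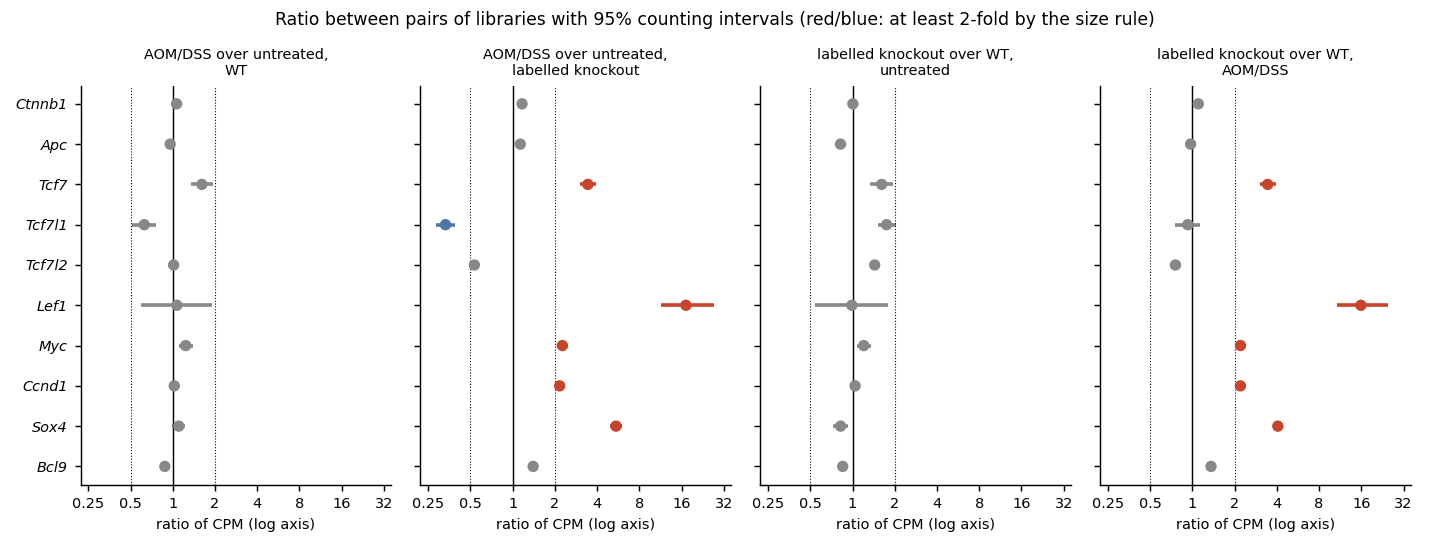
Ratio of CPM between pairs of libraries for each gene on a log axis, with 95% counting intervals as lines; dotted lines mark 2-fold, red and blue points passed the 2-fold rule. The 5 red genes recur in both panels that hold the labelled Card9-/- AOM/DSS library, with Lef1 farthest out at 17.2 and 15.9, and the other 2 panels have no coloured point.

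In a bulk sample more cells of a type and more RNA per cell cannot be told apart, and markers of several cell types moved in the same library. T cell markers summed to 68.5, 86.9, 130 and 191 CPM, with none of 15 at 0 in any library. After AOM/DSS 6 of 15 were at least 2-fold higher in WT, beside 4.08% of all genes. In the labelled pair 6 of 15 were, beside 14.1%. Zap70, at 6.24 and 20.6 CPM, was the 1 of 15 that was higher between the AOM/DSS libraries, beside 11.9%. Between the AOM/DSS libraries the 15 markers had a median log2 ratio of 0.45 and a range of 0.03 to 1.58, all higher in the labelled library, where Lef1 had 3.16 and Tcf7 1.70. B cell markers, another lymphocyte source of Lef1 in early stages, summed to 12.8, 127, 162 and 26.6 CPM, lower in labelled than in WT AOM/DSS.

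Macrophage markers summed to 320, 284, 230 and 749 CPM, with 7 of 8 higher and Cd163 lower between the AOM/DSS libraries. For this count and the epithelial one below, 11.9% of all genes were higher and 12.4% lower in that comparison. Fibroblast markers summed to 2170, 2016, 1301 and 1533 CPM, and endothelial markers to 241 to 293 CPM. Epithelial markers summed to 13800, 14870, 17220 and 9367 CPM, and between the AOM/DSS libraries 1 of 9 was higher and 5 lower, among them Cdx2, a factor of intestinal identity, at 279 and 16.9 CPM. Paneth cell markers summed to 2010 CPM in the labelled AOM/DSS library and to 19.8 to 175 CPM elsewhere, where 1 or 2 of 6 were at 0. Lyz1 alone stood at 1461 CPM in the labelled AOM/DSS library. In the labelled pair 4 of 6 were higher and 2 lower, beside 14.1% and 15.9% of all genes. The lower ones were Ang4, from 127 to 61.8 CPM, and Mptx2, from 17.3 to 3.54 CPM. All 6 were higher in the labelled than in the WT AOM/DSS library. The part of these cell types in the differences of the 10 genes was not tested. Per summed epithelial marker, 7 of the 10 genes were at least 2-fold higher in the labelled than in the WT AOM/DSS library (the 5 above, Ctnnb1 and Bcl9), but that scaling, added after the data were seen, moved the median log2 ratio of all genes from 0.03 to 0.84.

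**Figure D4:**
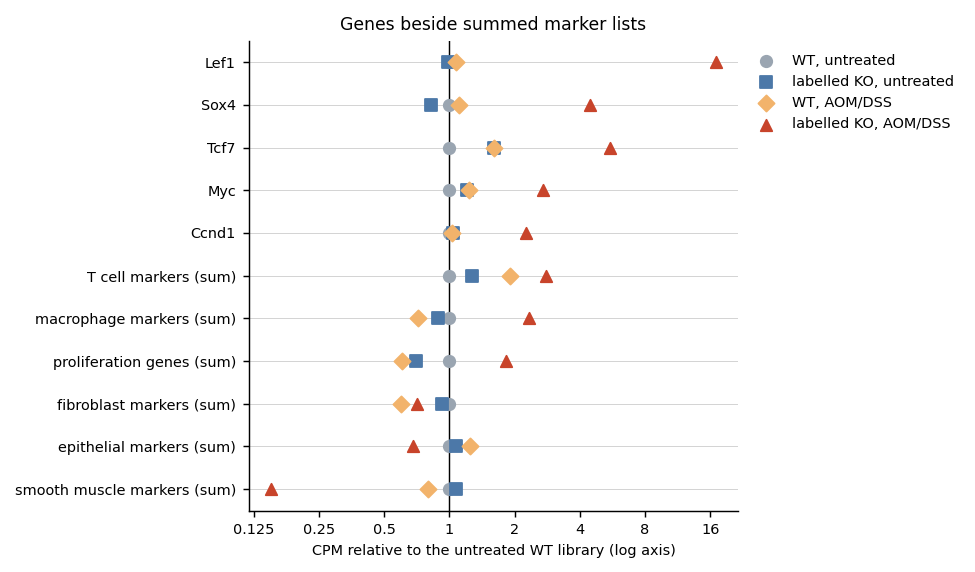
CPM relative to the untreated WT library on a log axis, for 5 genes and for summed marker lists, with 1 point per library. Lef1 lies at 17.0 and summed T cell markers at 2.78 in the labelled Card9-/- AOM/DSS library, and in WT AOM/DSS they lie at 1.07 and 1.90.

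Other genes of the pathway were read from lists chosen with earlier results of these data known. Their counts of genes past the 2-fold rule are to be read against the shares of all genes. These were 14.1% higher and 15.9% lower in the labelled pair, 4.08% and 3.88% in WT, and 11.9% and 12.4% between the AOM/DSS libraries. The breakdown complex and its regulators differed little: of 18 genes, 1 was higher and 1 lower in the labelled pair (median log2 ratio 0.03), and 0 and 1 in WT. The exception in both was Axin2, itself a target of the pathway, at 40.1, 35.5, 10.4 and 241 CPM, 3.85-fold lower after AOM/DSS in WT and 6.78-fold higher in the labelled pair. The other gene past the rule in the labelled pair was Apc2, the neuronal relative of Apc, which went from 3.31 to 0.505 CPM. Coactivators had 1 of 14 higher in the labelled pair (Ruvbl1, 2.35-fold) and 0 between the AOM/DSS libraries, and Smarca4, a chromatin remodeller that binds beta-catenin, stood at 203 and 384 CPM in the labelled pair, under the rule.

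Corepressors and inhibitors went both ways in the labelled pair, with 3 of 16 higher and 4 lower (median -0.14), not far from the shares of all genes. Nlk, a kinase that acts on TCF/LEF factors, was 3.69-fold higher. The Groucho corepressors did not move together. Tle2, the scarcest of them, was 5.35-fold lower (6.08 to 1.14 CPM). Tle3 went from 52.3 to 107 CPM, Tle1 from 33.8 to 40.6 CPM and Tle4 from 53.4 to 48.7 CPM. Tle2 and its short relative Aes (426 against 190 CPM) were the 2 of 16 lower in the labelled than in the WT AOM/DSS library. Hic1, a repressor that can sequester TCF factors, was lower after AOM/DSS in both pairs, 2.83-fold in WT and 3.06-fold in the labelled pair. Of 9 catenins and cadherins with enough counts, 1 was higher and 1 lower in the labelled pair, both at low levels. Cdh3 (P-cadherin) was 5.03-fold higher (1.1 to 5.6 CPM) and Cdh2 (N-cadherin) 3.33-fold lower (4.4 to 1.3 CPM). Cdh1 (E-cadherin), which holds beta-catenin at junctions, stood at 833, 1303, 915 and 842 CPM.

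The other known targets of the pathway had the highest median log2 ratios of these lists in both comparisons with the labelled Card9-/- AOM/DSS library. After AOM/DSS 15 of 23 were higher and 1 lower in the labelled pair (median 1.75), beside 14.1% and 15.9% of all genes. In WT 2 of 22 were higher and 5 lower (median -0.47), beside 4.08% and 3.88%. Between the AOM/DSS libraries 15 of 23 were higher and 1 lower (median 2.72), beside 11.9% and 12.4%. Prox1 stood at 13.8, 4.37, 8.76 and 369 CPM. The low untreated labelled library, 3.16-fold below untreated WT, enters its ratio in the labelled pair. Lgr5, the crypt stem cell receptor, stood at 9.80, 9.16, 1.74 and 101 CPM, lower after AOM/DSS in WT and higher in the labelled pair. Myc, Ccnd1 and Sox4, which are not in that list, had log2 ratios of 1.11, 1.13 and 1.99 between the AOM/DSS libraries, each below its median.

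Genes around Myc and cyclin D1 differed less. Myc's relatives and partners had 1 of 14 higher and 4 lower in the labelled pair (median -0.31): Mxd3 was 3.26-fold higher, while Max, the obligate partner of Myc, was 2.33-fold lower. Max stood at 88.6, 189, 116 and 81.2 CPM, so the high untreated labelled library, 2.14-fold above untreated WT, enters that ratio. Of 30 growth and ribosome genes known as Myc targets, 5 were higher, a share near the 14.1% of all genes, and 0 lower in the labelled pair (median 0.60). Among the 5 were Tfrc at 82.5 and 224 CPM and Nop58 at 29.7 and 78.3 CPM. In WT 0 were higher or lower (median -0.01). In the cyclin D pathway 3 of 18 were higher and 2 lower in the labelled pair, also near the shares of all genes, with Ccne1 (cyclin E1) 4.94-fold higher and the CDK inhibitor gene Cdkn2b 8.36-fold lower. Between the AOM/DSS libraries 5 of 18 were higher and 1 lower (median 0.51), beside 11.9% and 12.4% of all genes. Cdkn2a, which encodes the tumour suppressors p16 and ARF, had 1, 0, 2 and 312 counts, which is 71.3-fold over a floor of 3 counts in the labelled pair, with a lower counting limit of 57.7-fold. Cdk6, a partner of cyclin D1, was 2.17-fold lower after AOM/DSS in WT. Cdk4, another partner, stood at 91.4, 110, 92.0 and 216 CPM, highest in labelled Card9-/- AOM/DSS.

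Of the other Sox factors, 3 of 10 with enough counts were higher in the labelled pair and 1 lower. Sox21 stood at 3.13 and 33.0 CPM, and Sox11, close kin of Sox4, had 1 and 93 counts (63.8-fold, counting interval 11.2 to 2546). Sox9, the Wnt target of crypts, stood at 43.2, 50.5, 29.9 and 85.9 CPM. Proliferation genes were higher in 12 of 15 cases in the labelled pair (median 1.40) and lower in 2 of 15 in WT (median -0.67), where Ccnd1 was level.

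**Figure D5:**
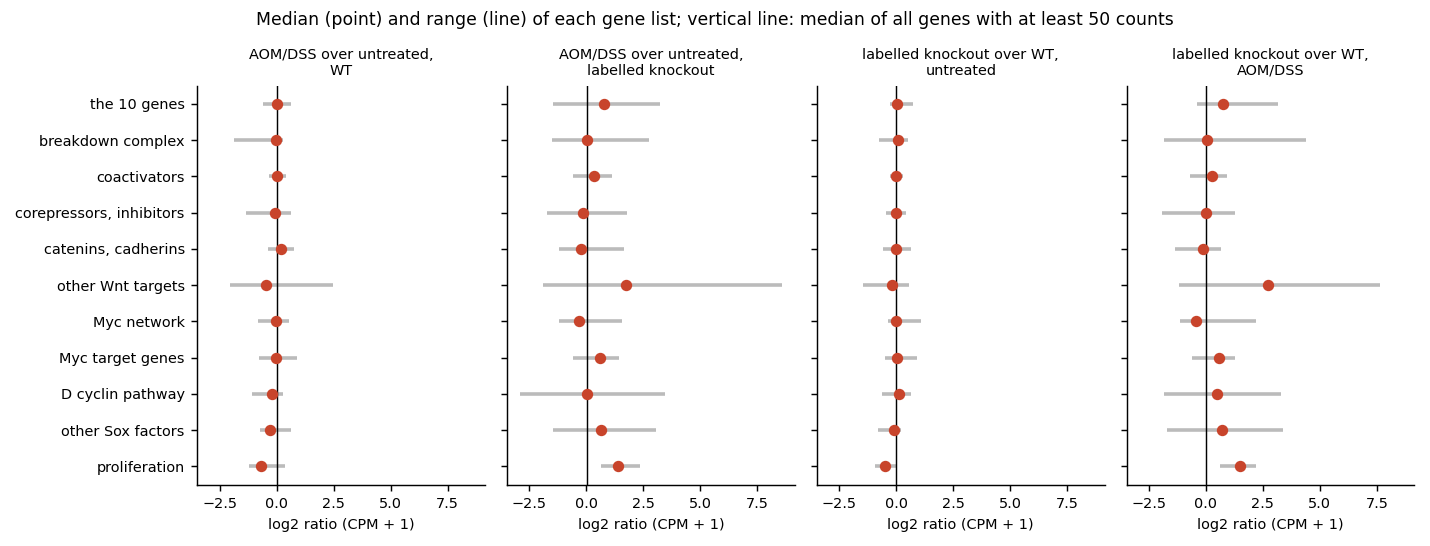
For every gene list, the median (point) and range (line) of log2 ratios of CPM + 1, in 4 panels, 1 per comparison; the vertical line is the median of all genes with enough counts. Other Wnt targets sit at 1.75 and 2.72 in the panels with the labelled Card9-/- AOM/DSS library and at -0.47 in the WT pair.

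Ordered by level per kb of exon, Ctnnb1 had rank 1 and Ccnd1 rank 2 in every library, at 167 and 20.8 CPM per kb in untreated WT and 196 and 46.9 in labelled Card9-/- AOM/DSS. Lef1 was last in the first 3 libraries (0.121 to 0.130) and shared the last places with Tcf7l1 in the labelled AOM/DSS library (2.07 and 1.82, with overlapping counting intervals). Sox4 and Myc came next after Ccnd1 there, at 24.4 and 23.0 CPM per kb, also with overlapping intervals. In untreated WT the next after Ccnd1 were Apc (9.97) and Myc (8.45), and Bcl9, Sox4 and Tcf7l2 followed with intervals that overlapped from 1 to the next. Tcf7 had rank 9 in untreated WT and rank 5 in labelled Card9-/- AOM/DSS, at 3.02 and 16.8 CPM per kb.

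By pattern over the 4 libraries, Myc and Ccnd1 were the nearest pair among the 10 genes (distance 0.205 in log2 units between centred values). Among 13267 genes with at least 200 counts in all, the nearest to Ccnd1 was Nap1l1 (33.3, 34.0, 34.2 and 75.1 CPM, distance 0.026), and the nearest to Myc was Card6 (11.9, 14.0, 14.4 and 32.7 CPM, 0.033). The nearest to Lef1 was Krt13, a keratin of squamous epithelium (1.90, 1.93, 1.83 and 24.9 CPM, 0.087). Tcf7 lay nearest to H2-DMb1 and Zap70 (0.187 and 0.192), genes of antigen presentation and T cell signalling, and Sox4 to Acsbg1 (0.063). With 4 points, such likeness is a description of these libraries.

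The AOM/DSS response differed between the labels by 3.17 log2 units for Lef1 and 2.26 for Sox4 (labelled Card9-/- minus WT), more than for 98.6% and 96.8% of 16383 genes. For Tcf7, Ccnd1 and Myc the differences were 1.08, 1.07 and 0.85, and 14.2% of all genes had a difference of at least 1. Tcf7l2 and Tcf7l1 differed the other way, by -0.91 and -0.86, and Ctnnb1 and Apc by 0.13 and 0.24. None of these differences was tested, because each rests on 4 single libraries.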

How the data were processed

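Raw read counts per gene symbol, whole numbers without normalization as deposited, were used for 4 colon libraries, 1 per group, grouped by their labels and matched to columns by sample title. Per the labels' protocols, RNA was taken with TRIzol and libraries were made with the Ion Proton RNA-seq kit; the submitters' processing notes name GRCm38 (mm10) as genome. Aligner, counter, annotation and strand handling: not given in the sources used here. The libraries held 25422042, 23332004, 23022885 and 27706567 counts (untreated WT, untreated labelled Card9-/-, WT AOM/DSS, labelled Card9-/- AOM/DSS), so a gene at 25 counts has a wide interval.

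CPM were scaled with edgeR 4.0.16 under R 4.3.3, whose TMM factors came to 0.992, 0.931, 0.947 and 1.14. The 2-fold rule used log2(CPM + 1), which understates low genes, and at least 50 counts in the higher library. Printed folds are ratios of CPM with exact 95% Clopper-Pearson intervals. Calculations were tested on simulated data. Adgre1 was read under its older symbol Emr1, and 27 symbols turned into dates were left as they stand. Exon lengths and positions came from GENCODE M21 (GRCm38). The 10 genes, the gene lists and the alternatives (size factors from DESeq2 1.42.0, upper-quartile factors, library totals, genes above 1% left out, pseudocounts of 0.5 and 5, minimums of 200 and 0 counts, 1.5-fold) were chosen with earlier results of these data known. Named genes were the 10, up to 4 per list and comparison with the largest ratios, and the 3 nearest patterns per gene. Card9, the overlapping genes, the remaining Groucho genes and Cdk4 were named besides.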

Additional observations from a re-analysis of the deposited data

Results flagged for a closer look

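Bcl9 is singled out because its AOM/DSS ratios lay on opposite sides of 1 in the 2 label pairs, each beyond counting error: 45.5 against 51.9 CPM in WT and 61.8 against 44.1 CPM in the labelled Card9-/- pair. The difference of the log2 ratios was 0.66 (labelled minus WT), it was not tested, and neither ratio reached 2-fold. Of all genes, 78.1% had a lower difference.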

How the results depend on the processing

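No paired analysis was possible because each group has 1 library and no test was made. For the same reason no library could be left out of a group. Under all alternatives but 1.5-fold and epithelial scaling, the 2-fold counts of the 10 genes were as reported in all 4 comparisons, with Tcf7, Lef1, Myc, Ccnd1 and Sox4 higher and Tcf7l1 lower. With a rule of 1.5-fold, WT gained 1 higher (Tcf7) and 1 lower gene (Tcf7l1), where 1471 and 1693 of 15356 genes passed; the labelled Card9-/- pair had 2 lower genes (Tcf7l1 and Tcf7l2), where 4147 of 15900 passed; and between the untreated libraries 2 were higher (Tcf7 and Tcf7l1), where 1810 of 15352 passed. Scaling to summed epithelial markers, chosen after seeing the data, left 0 lower genes in the labelled pair, where 1231 of 15900 genes were lower, and gave 6 higher there (5328 of 15900) and 7 between the AOM/DSS libraries (6324 of 15779). No called ratio changed sign. The sizes were less stable than the counts of genes: of the 40 ratios, 21 moved beyond their counting interval under library totals and 30 under epithelial scaling. With DESeq2 factors 5 moved, with upper-quartile factors 2 and with a pseudocount of 5 CPM 7. A pseudocount of 0.5 CPM or leaving out genes above 1% moved 0. Depth limits Lef1 most, with 23 to 27 counts in 3 libraries.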
